A study of Mus musculus with 6 samples.

Results

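The transcripts described here are those of 10 genes of the Bcl2 family, the proteins that set whether the outer mitochondrial membrane stays closed or opens during cell death. They were taken by gene symbol from the feature table of single-cell RNA sequencing of CD11b+ bone marrow cells, where all 10 were found among 32285 genes. The pro-survival members were Bcl2a1a, Bcl2a1b, Bcl2a1d, Mcl1, Bcl2 and Bcl2l1, the pore-forming effectors were Bax and Bak1, and the BH3-only members were Bcl2l11 (Bim) and Bid. Cells came from 2-month-old C57Bl/6 mice, without treatment or transgene, in 3 femur-derived libraries (replicate 1 from a female, the others from males) and 3 mandibular-derived libraries (all male). By the labels, the femur group was flushed from femurs plus tibiae and the mandible group from mandibles without molars, selected on CD11b beads, whereas the study's methods name femurs alone. Nothing in the labels says that replicates came from separate mice, so p-values measure the spread between these libraries.

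In healthy cells the pro-survival proteins hold Bax and Bak1 inactive and bind the BH3-only proteins. When BH3-only proteins rise, or a pro-survival protein is lost, Bax and Bak1 form pores that release cytochrome c and start the caspase cascade. Neutrophils are short-lived and are known to depend on Mcl1, a protein that turns over quickly. Bcl2a1 (A1) is an inducible pro-survival protein of haematopoietic cells, Bcl2 and Bcl2l1 (Bcl-xL) are the classical long-lived guards of lymphocytes and erythroid cells, and Bim is the main killer of unneeded leukocytes.

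Mice carry several near-identical copies of the A1 gene on chromosome 9, so their counts need care. On mm10 with GENCODE vM21, Bcl2a1a (ENSMUSG00000102037) lies at chr9:88956900-88962419 on the plus strand, Bcl2a1b (ENSMUSG00000089929) at chr9:89199209-89207827 on the plus strand and Bcl2a1d (ENSMUSG00000099974) at chr9:88723285-88731914 on the minus strand. All 3 are annotated as protein coding, and Bcl2a1b overlaps the annotated gene Gm29094 on its own strand. Their coding sequences are 516 bases long, and the copies differ at 12 positions in all, 6 of which fall in the first 90 bases shown here, from the start codon, with the differing bases in capitals:
Bcl2a1a: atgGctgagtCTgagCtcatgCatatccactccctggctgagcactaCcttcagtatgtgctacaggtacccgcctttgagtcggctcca
Bcl2a1b: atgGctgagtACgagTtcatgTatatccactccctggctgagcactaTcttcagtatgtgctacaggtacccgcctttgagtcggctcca
Bcl2a1d: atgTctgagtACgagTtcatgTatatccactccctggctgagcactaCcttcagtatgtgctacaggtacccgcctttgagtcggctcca
Bcl2a1b and Bcl2a1d differed at 6 coding bases (98.8% identity), Bcl2a1a and Bcl2a1d at 7 (98.6%), and Bcl2a1a and Bcl2a1b at 11 (97.9%). In the last 400 bases of the transcripts, where 3' libraries place their reads, 73.0% of the 90-base windows of Bcl2a1a were found in neither other copy, against 65.9% for Bcl2a1b and 39.2% for Bcl2a1d. Reads outside those windows cannot be assigned to 1 copy, so the split between copies is uncertain, and the sum of the 3 is given as well where it was computed.

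The upstream regions of the copies are alike as well. The longest identical stretch between the 300-base promoter windows of Bcl2a1a and Bcl2a1b was 174 bases, and each shared 84 bases with that of Bcl2a1d. The letters GAGGAAGT, a form of the site of PU.1 (a transcription factor of myeloid and B cells), were in the windows of all 3 copies and of Bak1 and in none of the other 6 members, searched on both strands, against 3.20% of 32851 promoters in the RefSeq table. The consensus NF-kB site, the AP-1 letters TGAGTCA and the CRE letters TGACGTCA were in the window of no member. The Bcl2a1b window, from 250 bases before to 50 after the RefSeq start (GRCm38.p6, chr9:89199023-89199322, plus strand), is shown with the PU.1 letters in capitals, because Bcl2a1b gave the most UMIs of the 3 copies:
Bcl2a1b promoter: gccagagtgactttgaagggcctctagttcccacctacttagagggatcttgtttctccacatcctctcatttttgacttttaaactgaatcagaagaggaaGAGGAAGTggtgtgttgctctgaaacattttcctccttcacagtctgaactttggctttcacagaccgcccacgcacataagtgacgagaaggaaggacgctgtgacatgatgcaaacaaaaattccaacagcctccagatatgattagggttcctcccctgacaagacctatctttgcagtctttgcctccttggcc

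The 69776 kept cells gave 7763 to 22797 cells and 82962160 to 244946998 UMIs per library, and pairs of libraries shared 15 to 70 cell barcodes (0.193% to 0.651% of the smaller library). Levels are given as CPM, the UMIs of a gene per 1000000 UMIs summed over the cells of 1 library and cluster. Because a UMI stands for 1 captured transcript end, CPM is not scaled to length, and each member is compared with itself across clusters and sites. The clusters are the authors' 9 clusters (resolution 0.1). Reference labels deposited with the cells called 95.2% to 100% of clusters 0 to 4 and 96.0% of cluster 7 neutrophils, 85.0% of cluster 6 B cells, and 50.8% of cluster 5 monocytes, 34.4% neutrophils and 6.55% macrophages. Itgam, which encodes CD11b, was detected in every cluster, lowest in cluster 6 (141 to 275 CPM) and at 444 to 1349 CPM in clusters 0 to 5.

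Clusters 4, 0, 3, 2 and 1 followed an order of falling immature neutrophil transcripts. The sum of Ltf, Camp, Ngp and Lcn2 lay between 88304 and 99716 CPM in clusters 4 and 0, between 13012 and 31019 CPM in cluster 3, between 6181 and 21609 CPM in cluster 2 and between 2869 and 15375 CPM in cluster 1. Clusters 4 and 0 overlapped in that sum and were told apart by the precursor genes Elane, Mpo, Prtn3 and Ctsg, which summed to 1308 to 3495 CPM in cluster 4 and 6.99 to 23.0 CPM in cluster 0. The mature neutrophil genes Il1b, Csf3r, Cxcr2, Retnlg and Mmp8 summed to 936 to 2841 CPM in cluster 4 and 6183 to 10587 CPM in cluster 0. They were highest in cluster 3 (29793 to 38214 CPM) and fell in every library through cluster 2 to cluster 1 (21303 to 27541 CPM). Cluster 1 was thus lowest in immature transcripts without being highest in mature ones. The clusters were built from the expression of these cells, so levels between clusters are a description with no test.

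Mcl1 (chr3:95658788-95663176) was higher in CPM at each step of this order in every library. In cluster 4 it measured 153, 129 and 175 CPM in the femur libraries and 137, 180 and 137 CPM in the mandible libraries. In cluster 1 the values were 1200, 967 and 1141 CPM for the femur and 933, 938 and 918 CPM for the mandible. The ratio of cluster 1 to cluster 4 was 5.22 to 7.84 over the 6 libraries. Cells also held less RNA along the way, with median UMIs per cell of 17937 to 23203 in cluster 4 and 3827 to 6153.5 in cluster 1. Counted per 100 cells, Mcl1 gave 341 UMIs in cluster 4 and 555 in cluster 1 (means of 6 libraries), a 1.63-fold difference, higher in cluster 1 in 6 of 6 libraries. In between, the means were 322 in cluster 0, 375 in cluster 3 and 548 in cluster 2. The mean per cell thus fell from cluster 4 to cluster 0 and did not rise at each step.

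The A1 copies were also higher in cluster 1 than in cluster 4, at lower counts, but rose at each step in 2 of 6 libraries. Summed, they measured 1.96 to 3.48 CPM in cluster 4, 3.52 to 4.81 CPM in cluster 0, 2.34 to 5.66 CPM in cluster 3, 5.59 to 14.7 CPM in cluster 2 and 14.6 to 30.6 CPM in cluster 1. The sum was lower in cluster 3 than in cluster 0 in 4 of 6 libraries. Cluster 3 overlapped clusters 4 and 0 and, between 5.59 and 5.66 CPM, cluster 2, and clusters 2 and 1 overlapped between 14.6 and 14.7 CPM. Per 100 cells the sum was 5.80 UMIs in cluster 4 and 11.9 in cluster 1, again higher in cluster 1 in 6 of 6 libraries. Bcl2a1b gave 5298 of the 8910 A1 UMIs of all cells, Bcl2a1d 1889 and Bcl2a1a 1723.

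Bcl2 (chr1:106538178-106714274) went the other way. It measured 7.34 to 13.3 CPM in cluster 4 and 4.06 to 7.30 CPM in cluster 0, and 0.206 to 1.65 CPM in clusters 3, 2 and 1. Cluster 1 was 8.79-fold below cluster 4 in CPM and 37.0-fold below it per cell, with 0.607 against 22.5 UMIs per 100 cells. Clusters 3, 2 and 1 overlapped and rested on 42, 44 and 98 UMIs over 6 libraries.

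Bcl2l1 (chr2:152780668-152831728) gave a different answer on each scale. Its CPM was 2.03-fold higher in cluster 1 than in cluster 4 (39.1 against 19.2 CPM), whereas its UMIs per cell were 2.05-fold lower. In 6 of 6 libraries the CPM was higher and the UMIs per cell were lower in cluster 1.

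Both effectors were lower in cluster 1 than in cluster 4 in 6 of 6 libraries on both scales, and both had their lowest mean CPM in between. Bax (chr7:45461697-45466898) measured 19.6 to 26.0 CPM in cluster 4, 8.90 to 13.1 CPM in cluster 0, 3.20 to 5.35 CPM in cluster 3, 4.85 to 10.02 CPM in cluster 2 and 9.68 to 19.4 CPM in cluster 1. It was higher in cluster 2 than in cluster 3, and in cluster 1 than in cluster 2, in 6 of 6 libraries. Bak1 (chr17:27019810-27029009) measured 30.7 to 41.4 CPM in cluster 4, 29.0 to 37.8 CPM in cluster 0 and 18.2 to 26.9 CPM in cluster 1. In cluster 3 it was 18.6 to 28.5 CPM and in cluster 2 19.6 to 25.1 CPM, with means of 21.8, 21.3 and 23.5 CPM in clusters 3, 2 and 1. From cluster 2 to cluster 1 it rose in 5 of 6 libraries. Per cell, cluster 4 held 7.64 times the Bax UMIs and 6.04 times the Bak1 UMIs of cluster 1.

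The BH3-only members ended high in CPM. Bim transcript (Bcl2l11, chr2:128126038-128162547) measured 11.5 to 17.7 CPM in cluster 4, 5.94 to 10.8 CPM in cluster 3 and 23.3 to 41.1 CPM in cluster 1. Bid (chr6:120891930-120916853), which caspase 8 cleaves to link death receptors to mitochondria, was higher in CPM at each step in 6 of 6 libraries, with 15.9 to 22.5 CPM in cluster 4 and 49.6 to 77.9 CPM in cluster 1. Per 100 cells Bid gave 43.1 UMIs in cluster 4 and 36.3 in cluster 1, and Bcl2l11 gave 31.2 and 18.2 UMIs. In between, Bid gave 29.0 UMIs in cluster 0, 33.2 in cluster 3 and 39.5 in cluster 2.

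**Figure D1:**
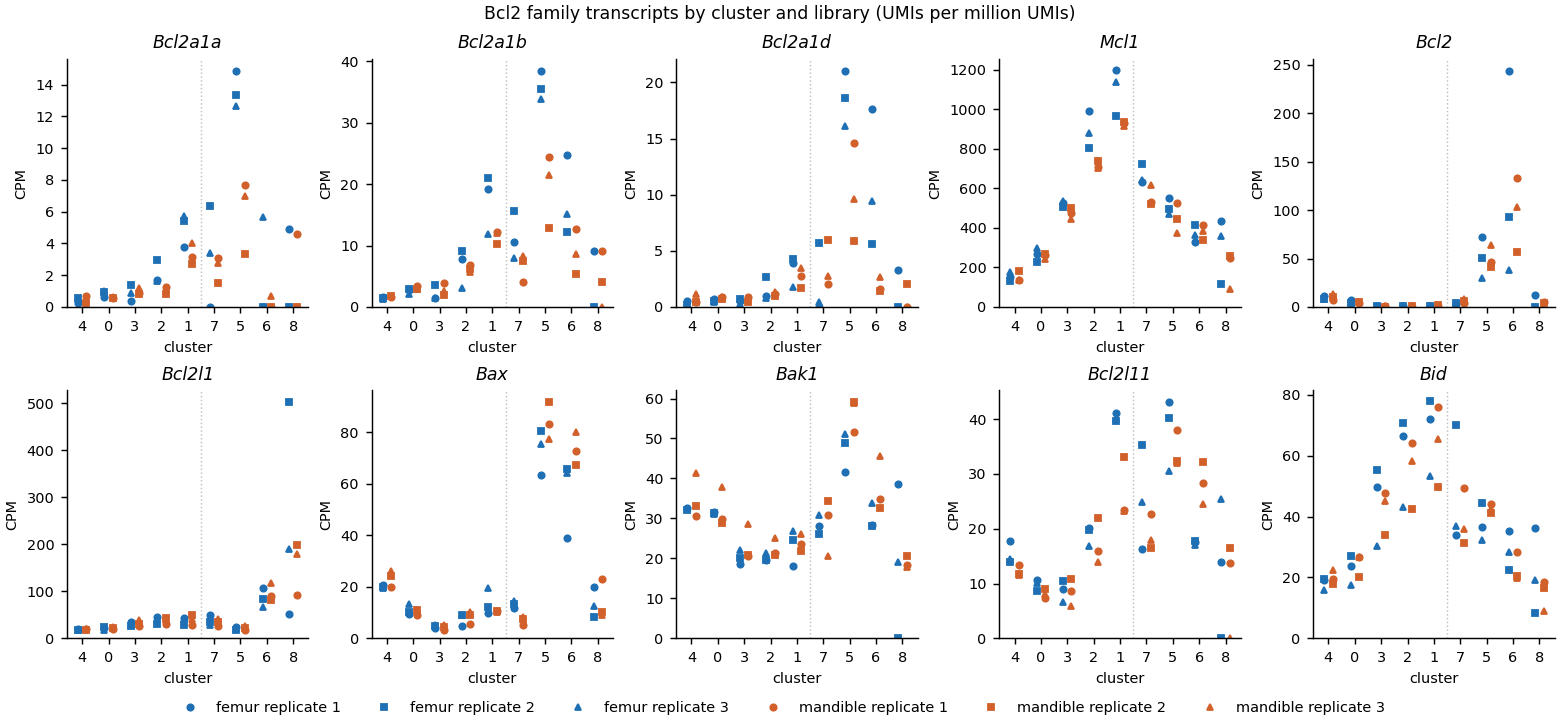
CPM (UMIs of a gene per 1000000 UMIs, linear axes from 0) of the 10 members in each cluster, with clusters in the order 4, 0, 3, 2, 1 of falling immature neutrophil transcripts and the others right of the dotted line. Each point is 1 library, blue for femur and orange for mandible. Mcl1 and Bid climb from cluster 4 to cluster 1, Bcl2 and Bax are highest in clusters 5 and 6, and the A1 copies have their highest means in cluster 5 with the femur points above the mandible points.

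Outside the neutrophil order, cluster 5 had the highest A1 levels. There the A1 sum was 22.1 to 74.3 CPM, against 6.83 to 42.4 CPM in cluster 6 (88 UMIs in all) and at most 30.6 CPM in any other cluster. Cluster 5 also held high Bax (63.2 to 91.7 CPM), Bak1 (41.7 to 59.1 CPM) and Bcl2 (30.0 to 72.4 CPM). The Bax values overlapped those of cluster 6 (38.8 to 80.1 CPM), whereas both lay above the 26.0 CPM reached in cluster 4. Monocyte marker transcripts (Ccr2, Ly6c2, Csf1r, Apoe and Ctss) summed to 3791 to 5675 CPM in cluster 5 and to at most 1355 CPM elsewhere.

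Cluster 6 carried the most Bcl2, with values of 244, 92.9 and 37.7 CPM in the femur libraries and 133, 57.1 and 103 CPM in the mandible libraries. Femur replicates 1 and 3, the highest and the lowest, gave 39 and 60 cells. Bcl2l1 was 66.0 to 119 CPM in the same cluster.

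Cluster 8 had the highest Bcl2l1, at 52.7 to 503 CPM, on 291 UMIs in all and 11 to 160 cells per library. Its reference labels were 87.6% neutrophil, but haemoglobin transcripts (Hbb-bs, Hba-a1 and Hba-a2) summed to 27408 to 209227 CPM there and to at most 2870 CPM in any other cluster. Femur replicate 1, with 160 of these cells, had both the lowest Bcl2l1 and the lowest haemoglobin sum. The part of erythroid RNA in the Bcl2l1 level was not tested. Cluster 7 resembled the mid-order neutrophils in Mcl1 (522 to 723 CPM) and stayed low in Bcl2 (3.503 to 8.29 CPM).

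Family make-up was read as each member's share of the UMIs of all 10 within a library and cluster. Mcl1 made up 49.6% to 61.2% of them in cluster 4 and 81.8% to 85.0% in cluster 1. The 6 pro-survival members together held 63.2% to 71.2% in cluster 4, 77.0% to 81.9% in cluster 0 and 86.9% to 90.02% in cluster 1, and the ranges of these 3 clusters did not overlap. In clusters 3 and 2 they held 85.2% to 89.8% and 87.5% to 91.1%, both overlapping cluster 1. With Mcl1 set aside, the other 5 pro-survival members held 25.4% to 27.6% of the remaining 9 in cluster 4 and 26.4% to 36.7% in cluster 1. In cluster 5 the pro-survival share was 70.4% to 79.6%, and in cluster 6 the share without Mcl1 was 48.3% to 76.6%.

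**Figure D2:**
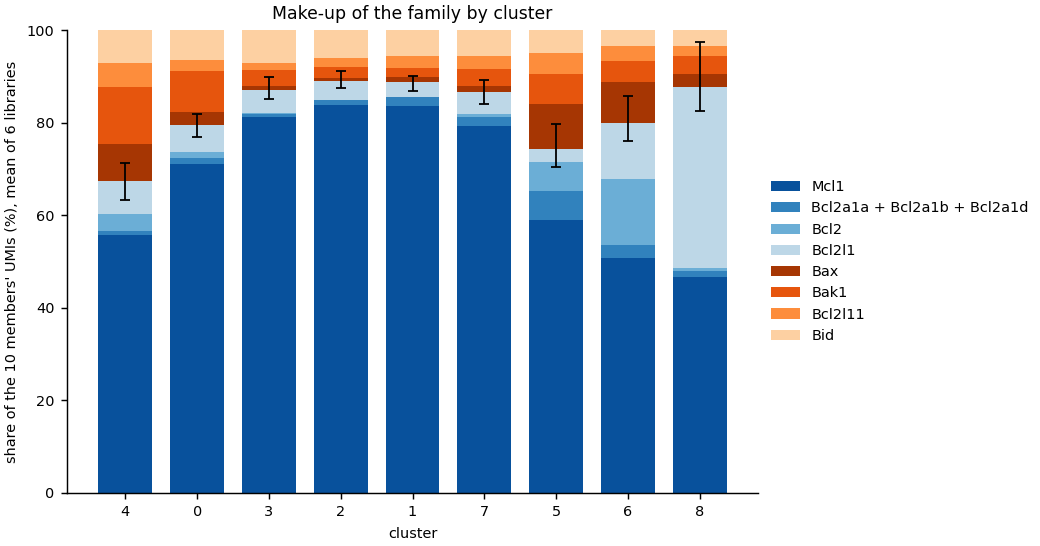
Share of the UMIs of the 10 members (percent, linear axis from 0 to 100) held by each, by cluster, as the mean of 6 libraries. Blue shades are pro-survival and orange shades are effector or BH3-only members, and black bars give the lowest and highest library for the pro-survival total. Mcl1 takes the largest mean share in every cluster, Bcl2 widens in cluster 6 and Bcl2l1 in cluster 8.

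Across the 48 library sums of clusters 0 to 7, which share libraries and depth, the pairs of members most alike in log2(CPM + 1) were Bcl2 with Bax (r = 0.89), Bcl2a1b with Bcl2a1d (r = 0.87) and Mcl1 with Bid (r = 0.85). The least alike were Bcl2 with Bid (r = -0.48) and Mcl1 with Bak1 (r = -0.45). Among 7105 genes with a mean of at least 10 CPM, the 5 non-members most like Mcl1 were Tbc1d14, Picalm, Themis2, Selplg and Tpd52 (r = 0.97 for each). For Bcl2a1b they were Abcg3, Slc43a2, Zeb2, Gm2a and Prkch (r = 0.91 to 0.93), and for Bcl2 they were Trim44, Pdia4, Ddx10, Uri1 and Ppdpf (r = 0.97 for each). For Bcl2l11 they were Nrros, Pmaip1, Ctsa, Napa and Vmp1 (r = 0.86 to 0.89), where Pmaip1 encodes Noxa, another BH3-only protein.

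The comparison of skeletal sites asked whether mandibular-derived cells balance these genes differently from femur-derived cells. The edgeR quasi-likelihood test was run in each cluster over all genes, and a gene was called at an adjusted p under 0.05. Of 90 member and cluster pairs, 71 passed the filter on low counts, and 0 were called. All genes together gave few calls, at 0.0163% in cluster 0, 0.0842% in cluster 1, 0.0416% in cluster 2, 0.0108% in cluster 3, 0.0245% in cluster 4, 0.0842% in cluster 7 and 0% in clusters 5, 6 and 8. At an unadjusted p under 0.05 there were 9 pairs, 7 lower and 2 higher in the mandible: 1 in each of clusters 0, 1, 2 and 6, 2 in cluster 4 and 3 in cluster 5. Over all genes that share was 6.81%, 13.6%, 12.2%, 4.38%, 13%, 7.11%, 4.04%, 5.32% and 1.1% in clusters 0 to 8. DESeq2 called 2 of the pairs, Bcl2a1a and Bcl2a1b in cluster 5, among 784 calls over all genes and clusters against 24 in edgeR.

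Site values did not overlap in 16 of the 71 pairs, 11 lower and 5 higher in the mandible. By cluster, these were 2 of 10 members in cluster 0, 2 of 10 in cluster 1, 2 of 9 in cluster 2, 1 of 7 in cluster 3, 1 of 9 in cluster 4, 4 of 10 in cluster 5, 2 of 8 in cluster 6, 2 of 6 in cluster 7 and 0 of 2 in cluster 8. The same count over all genes tested was 11.1%, 21.8%, 14.9%, 7.71%, 16%, 11.6%, 9.24%, 10.7% and 4.6% in clusters 0 to 8. The 40% of members in cluster 5, against 11.6% of all genes, holds the 3 near-identical A1 copies, which are not independent of each other, and Bak1.

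In cluster 5 the 3 A1 copies were all lower in the mandible. Bcl2a1b measured 38.4, 35.4 and 33.8 CPM in the femur libraries and 24.4, 12.9 and 21.4 CPM in the mandible libraries. Bcl2a1d measured 21.0, 18.6 and 16.2 CPM against 14.6, 5.88 and 9.62 CPM. Every mandible value lay below every femur value for both genes, and mandible replicate 2 was the lowest.

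Bcl2a1a behaved likewise in cluster 5, averaging 13.6 ± 1.13 CPM over femur libraries and 6.01 ± 2.33 CPM over mandible libraries (SD, n = 3 each). In the edgeR fit the log2 fold change was -1.23 (SE 0.28) for Bcl2a1a, with an unadjusted p of 0.00255 and an adjusted p of 0.594. For Bcl2a1b it was -0.92 (SE 0.22) with p of 0.00287 and adjusted p of 0.594, and for Bcl2a1d -0.93 (SE 0.29) with p of 0.0117 and adjusted p of 0.606. Summed over the copies, femur libraries averaged 68.1 ± 5.87 CPM and mandible libraries 35.6 ± 12.5 CPM (SD, n = 3 each). The log2 fold change of the sum was -0.98 (SE 0.24, edgeR adjusted p of 0.599). Under DESeq2 the adjusted p was 0.0320 for Bcl2a1a and 0.0421 for Bcl2a1b.

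The other members of cluster 5 had log2 fold changes between -0.21 and 0.20. Mcl1 averaged 507 ± 41.2 CPM over femur and 449 ± 73.7 CPM over mandible libraries (SD, n = 3 each), a change of -0.21 (SE 0.16, edgeR adjusted p of 0.788) that was -0.32 without mandible replicate 1 and -0.083 without mandible replicate 3. Bcl2l11 had -0.18 (SE 0.13, edgeR adjusted p of 0.780), and -0.027 in G1 cells and -0.0099 in cells with a neutrophil label. Bak1, at 41.7, 48.9 and 51.1 CPM against 51.7, 59.1 and 59.0 CPM, was the 1 member whose values lay wholly higher in the mandible, with an edgeR adjusted p of 0.807. Over the 10 members the median log2 fold change was -0.10, beside -0.01 over all 13765 genes tested.

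Cluster 5 mixed several kinds of cell, and the mixture differed between libraries. Monocyte labels took 47.5% ± 5.92 of its femur cells and 55.1% ± 7.80 of its mandible cells (SD, n = 3 each). Macrophage labels took 15.7%, 6.51% and 3.53% of the femur cells and 7.56%, 3.54% and 4.53% of the mandible cells, and dendritic cell labels 2.14% ± 0.997 and 2.68% ± 0.896 (SD, n = 3 each). Cells called S or G2M were 14.7%, 9.80% and 16.01% in the femur libraries and 9.87%, 31.9% and 20.4% in the mandible libraries, highest in mandible replicate 2. Dendritic cell markers (Siglech, H2-Aa and Flt3) summed to 1288, 782 and 738 CPM in the femur libraries and 646, 366 and 508 CPM in the mandible libraries, with no overlap, and bone or stromal markers to 92.3, 98.1 and 55.0 against 73.3, 538 and 551 CPM. Neutrophil precursor markers summed to 82.9, 95.6 and 140 against 44.2, 505 and 319 CPM, and the tooth markers Amelx, Ambn and Dspp to at most 0.489 against 77.1, 15.2 and 1282 CPM. Megakaryocyte markers (Pf4, Ppbp and Itga2b) were at 10.6 to 33.3 CPM against 35.5 to 58.3 CPM and haemoglobin at 140 to 545 CPM against 578 to 1281 CPM, both without overlap. Basophil, mast cell or eosinophil markers (51.7 to 190 against 61.8 to 419 CPM), T or NK cell markers (10.99 to 26.9 against 7.95 to 51.7 CPM) and endothelial markers (27.2 to 45.9 against 28.9 to 39.9 CPM) overlapped. The part of these cells in the A1 difference was not tested.

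In cells with a monocyte label alone the A1 sum was 64.2, 75.3 and 63.6 CPM for femur libraries against 38.5, 15.6 and 30.9 CPM for mandible libraries, with no overlap. The edgeR changes in those cells were -1.55 for Bcl2a1a, -1.26 for Bcl2a1b and -1.18 for Bcl2a1d (edgeR adjusted p of 0.107, 0.0983 and 0.124). Of the monocyte-labelled cells, 34 of 488, 50 of 772 and 84 of 614 were called S or G2M in the femur libraries. In the mandible libraries they were 63 of 610, 223 of 665 and 123 of 585. The A1 copies were lower in cells called S or G2M, as given below, so phase and site are mixed in these values. A fit of monocyte-labelled G1 cells alone was among the 17 alternatives in cluster 5. Over these 17, the changes ran from -1.55 to -0.73 for Bcl2a1a and from -1.26 to -0.57 for Bcl2a1b. For Bcl2a1d they ran from -1.28 to -0.67.

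Cells with a neutrophil label in cluster 5 had an A1 sum of 77.8, 56.9 and 60.5 CPM against 59.3, 28.8 and 37.2 CPM, where mandible replicate 1 reached into the femur range. Among the copies, Bcl2a1d overlapped between the sites. Bcl2a1a (9.67 to 14.5 against 4.76 to 9.56 CPM) and Bcl2a1b (30.7 to 36.8 against 16.7 to 30.1 CPM) were narrowly apart. The log2 fold changes in those cells were -0.73, -0.57 and -0.68 for Bcl2a1a, Bcl2a1b and Bcl2a1d (edgeR adjusted p of 0.928, 0.903 and 1.00). Cells with a macrophage label (46 to 167 per library) had higher Bcl2a1b, at 73.1, 43.4 and 79.5 CPM (femur) against 43.2, 90.4 and 121 CPM (mandible), and these overlapped. The 174 cells with a dendritic cell label (16 to 40 per library) had an A1 sum of 147, 212 and 147 CPM (femur) against 48.5, 30.0 and 114 CPM (mandible), on 193 UMIs in all. That was above the sum in macrophage-labelled cells in each femur library (112, 82.2 and 106 CPM) and below it in each mandible library (51.0, 112 and 153 CPM). Whether the site difference itself differed between labels was not tested. In G1 cells of cluster 5 alone the log2 fold changes were -1.01, -0.67 and -0.70 for Bcl2a1a, Bcl2a1b and Bcl2a1d (edgeR adjusted p of 0.442, 0.426 and 0.646), and without mandible replicate 2 they were -0.95, -0.70 and -0.67, each with an edgeR adjusted p of 0.9995. Without femur replicate 1, the library from a female, they were -1.22, -0.93 and -0.90 (edgeR adjusted p of 0.728, 0.728 and 0.845).

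**Figure D3:**
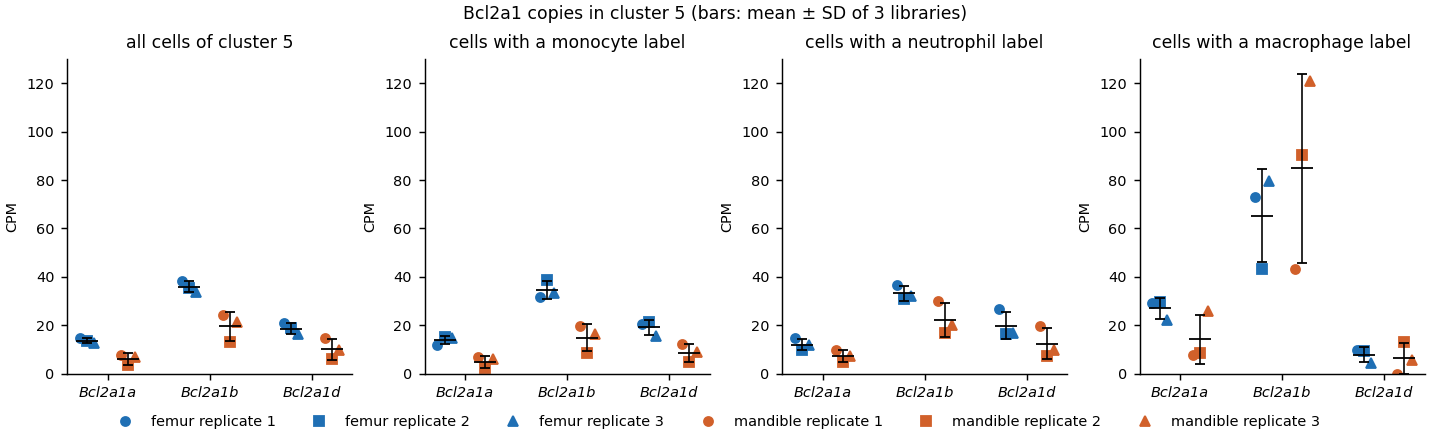
CPM (linear axes from 0) of the 3 A1 copies in cluster 5, for all its cells and for those with a monocyte, neutrophil or macrophage reference label. Points are libraries, and black bars are the mean ± SD of 3 libraries. The mandible points lie below the femur points in all cells and in the monocyte-labelled cells, and overlap them for Bcl2a1b in the macrophage-labelled cells. In the neutrophil-labelled cells they overlap for Bcl2a1d and lie narrowly below for Bcl2a1a and Bcl2a1b.

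The share of cluster 5 cells with at least 1 A1 UMI averaged 27.6% ± 3.82 over femur libraries and 19.9% ± 5.69 over mandible libraries (SD, n = 3 each), at median depths of 9031 to 10716 UMIs. Cells with at least 1000 UMIs were then thinned to 1000, which left out 37 cells of cluster 5. The shares after thinning were 6.20% ± 0.280 and 3.82% ± 1.16 (SD, n = 3 each). Cluster 4, the neutrophil precursors, gave 4.38% and 5.73% as counted and 0.185% and 0.336% after thinning, at a median of 17937 to 23203 UMIs. The cluster 5 shares lay above those of cluster 4 in 6 of 6 libraries. Free RNA was not measured, and its part in the shares of either cluster was not tested.

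In cluster 1, last in the order of falling immature transcripts, the A1 copies and Bim had negative fold changes in the mandible, and 0 of them were called. The sum of the immature neutrophil genes Ltf, Camp, Ngp and Lcn2 was wholly higher in the mandible. It was 5188, 2869 and 6598 CPM in the femur libraries and 6727, 15375 and 7955 CPM in the mandible libraries. The mature neutrophil genes Il1b, Csf3r, Cxcr2, Retnlg and Mmp8 were wholly higher there too, summing to 22795, 21303 and 22771 CPM against 27103, 27541 and 25514 CPM. So were the monocyte markers (473 to 595 against 600 to 732 CPM) and the tooth markers (at most 0.0569 against 11.3 to 47.9 CPM). The T or NK cell markers Cd3e, Cd3d, Trbc2 and Nkg7 were also wholly higher (7.55 to 11.4 against 13.7 to 16.2 CPM), with 0 UMIs of Cd3e. The median mitochondrial percent per cell was wholly higher there as well, at 0.196 to 0.266 against 0.295 to 0.365. The part of these markers and of this percent in these differences was not tested. Bcl2l11 measured 41.1, 39.7 and 40.0 CPM in the femur libraries and 23.5, 33.1 and 23.3 CPM in the mandible libraries, with no overlap. Its log2 fold change was -0.46 (SE 0.18, unadjusted p of 0.0318, edgeR adjusted p of 0.317). Mcl1 also did not overlap, at 967 to 1200 CPM against 918 to 938 CPM, but its log2 fold change after normalisation was -0.11 (SE 0.16, edgeR adjusted p of 0.824), between -0.25 without femur replicate 2 and -0.046 without femur replicate 1, and 0.0045 with the library name number as a replicate block. For Bcl2a1b the change was -0.44 (SE 0.21, edgeR adjusted p of 0.405) and for Bcl2a1d -0.19 (SE 0.38, edgeR adjusted p of 0.886), which ran from -0.50 without femur replicate 3 to 0.0069 without mandible replicate 2. The sum of the copies was at -0.41 (SE 0.18, unadjusted p of 0.0454, edgeR adjusted p of 0.354). The members' median in this cluster was -0.22, beside 0.00 over all 10687 genes tested.

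Mcl1 lay lower in the mandible with no overlap in clusters 1, 2, 3 and 7. Cluster 2 gave 993, 807 and 878 CPM in the femur libraries against 710, 737 and 703 CPM in the mandible libraries. In cluster 3 the values were 527, 506 and 537 CPM against 474, 501 and 445 CPM. After normalisation the log2 fold changes were -0.28 in cluster 2, -0.14 in cluster 3 and -0.17 in cluster 7 (SE 0.16, 0.16 and 0.18, edgeR adjusted p of 0.544, 0.999 and 1.00), and Mcl1 was called in 0 of the 9 clusters. In the other 5 clusters the sites overlapped. The immature neutrophil sum was wholly higher in the mandible in clusters 1 and 2, and in cluster 2 it was 11708, 6181 and 12154 CPM in the femur libraries against 13986, 21609 and 17667 CPM in the mandible libraries, with no overlap. Monocyte markers were also wholly higher there in cluster 2 (609 to 722 against 803 to 915 CPM), whereas the mature neutrophil sum overlapped. The immature sum overlapped between the sites in clusters 3 and 7. Megakaryocyte markers were wholly higher in the mandible in cluster 2 (1.23 to 2.58 against 5.77 to 14.03 CPM), cluster 3 (1.27 to 3.004 against 3.53 to 8.76 CPM) and cluster 7 (2.12 to 5.05 against 10.5 to 74.6 CPM). So were T or NK cell markers in cluster 2 (10.4 to 13.4 against 15.8 to 17.2 CPM, with 0 UMIs of Cd3e) and bone or stromal markers in cluster 7 (9.34 to 70.7 against 203 to 699 CPM). Tooth markers were at most 0.0973 CPM in the femur libraries of clusters 2, 3 and 7 and at 14.7 to 67.4, 12.2 to 27.3 and 180 to 528 CPM in the mandible libraries. Of these markers, Dspp had 0 UMIs in clusters 2, 3 and 7. The median mitochondrial percent per cell was wholly higher in the mandible in cluster 2 (0.193 to 0.238 against 0.292 to 0.359) and cluster 7 (5.84 to 7.42 against 7.62 to 7.74). It overlapped between the sites in cluster 3. The part of these genes and of this percent in the Mcl1 difference was not tested.

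The other pairs with an unadjusted p under 0.05 fell in clusters 0, 2, 4 and 6. Bcl2a1d was higher in the mandible in cluster 0 (log2 fold change 0.66, SE 0.29, edgeR adjusted p of 0.732) on 0.557 ± 0.151 and 0.835 ± 0.101 CPM (SD, n = 3 each). Bcl2a1a was at -0.54 in the same cluster (SE 0.32) and the sum of the copies at 0.23 (SE 0.15, edgeR adjusted p of 0.885). In cluster 2 Bcl2a1a was lower (-0.94, SE 0.36, edgeR adjusted p of 0.318), with Bcl2a1b at 0.00 (no SE given, as the change was near 0) and the sum at -0.20 (SE 0.27, edgeR adjusted p of 0.840). Bcl2a1b was lower in cluster 6 (-1.001, SE 0.46, edgeR adjusted p of 1.00). The A1 sum of cluster 6 was 42.4, 17.8 and 30.2 CPM (femur) against 14.2, 6.83 and 11.9 CPM (mandible), without overlap but on 88 UMIs (log2 fold change -1.45, SE 0.42, edgeR adjusted p of 1.00). Bone or stromal markers (at most 4.69 against 7.28 to 12.2 CPM), megakaryocyte markers (at most 0.938 against 4.74 to 7.81 CPM) and tooth markers (0 against 4.39 to 60.9 CPM, with 0 UMIs of Dspp) were wholly higher in the mandible in cluster 6. So were haemoglobin (16.2 to 23.3 against 45.7 to 191 CPM) and tooth markers (at most 0.0351 against 11.9 to 25.8 CPM) in cluster 0. The part of these markers in clusters 6 and 0 was not tested. In cluster 4 Bcl2l11 was lower (-0.30, SE 0.12, edgeR adjusted p of 0.347) and Bax higher (0.26, SE 0.11, edgeR adjusted p of 0.356). The same genes went the other way without overlap elsewhere, at unadjusted p just above 0.05. Bax was at -0.87 in cluster 7 (SE 0.41, edgeR unadjusted p of 0.0569) and Bcl2l11 at 0.65 in cluster 6 (SE 0.30, edgeR unadjusted p of 0.0501). Neutrophil precursor markers of cluster 4 were wholly higher in the mandible, at 1821, 1596 and 1308 CPM against 1991, 3479 and 3495 CPM. So were T or NK cell markers (80.3 to 94.5 against 105 to 136 CPM), bone or stromal markers (2.90 to 3.76 against 6.37 to 9.58 CPM) and tooth markers (at most 0.0488 against 6.998 to 9.90 CPM, with 0 UMIs of Dspp). Monocyte markers were wholly lower there (802 to 831 against 758 to 793 CPM). The part of these markers in the cluster 4 changes was not tested.

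**Figure D4:**
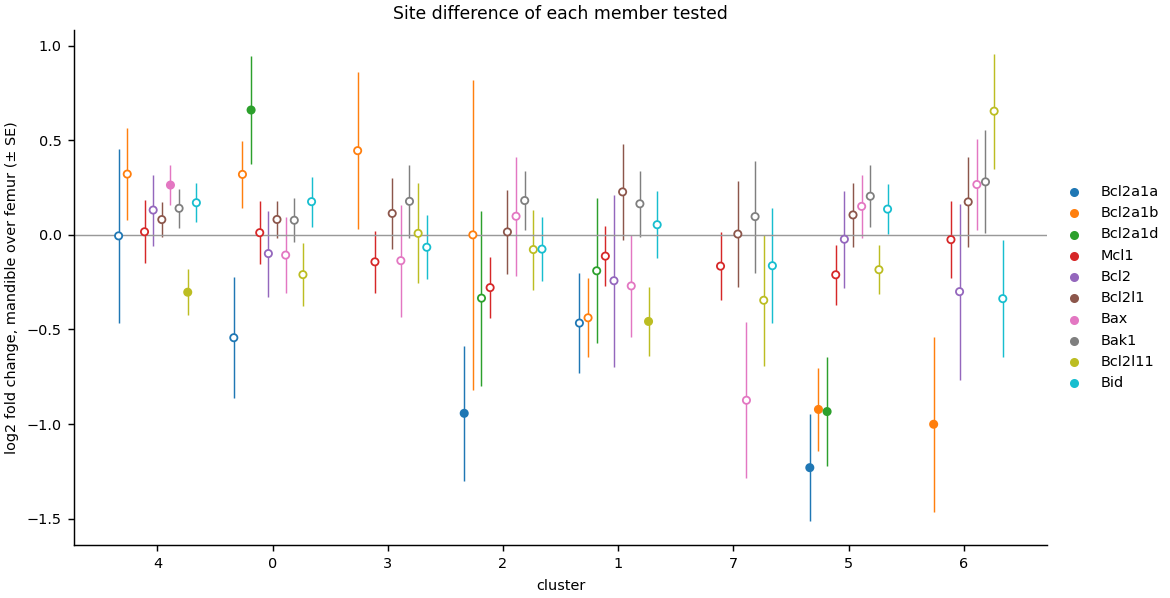
Log2 fold change, mandible over femur, of each member that passed the filter in clusters 4, 0, 3, 2, 1, 7, 5 and 6. Bars give the SE taken from the edgeR F statistic. The bar of Bcl2a1b in cluster 2, where the change was 0.00, cannot be read as its spread. Filled points have an unadjusted p under 0.05 and open points do not, and 0 points have an adjusted p under 0.05. The 3 A1 copies of cluster 5 lie between -1.23 and -0.92.

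The site effects of 2 clusters were compared in limma on the difference of log2 CPM within each library. For Bcl2a1b the effect in cluster 1 minus that in cluster 4 was -0.71 (SE 0.18, unadjusted p of 0.00656, limma adjusted p of 0.284). For Bcl2a1a the effect in cluster 5 minus that in cluster 1 was -0.85 (SE 0.29, unadjusted p of 0.0221, limma adjusted p of 0.447). Of the members, 0 of 9 and 0 of 10 were called in these comparisons, where 0% of all genes were called, and 1 in each had an unadjusted p under 0.05, beside 11.2% and 9.53% of all genes. The sum of the copies was not fitted there.

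Summed over all cells of a library, 0 of 10 members were called, as were 0% of all 16381 genes, 2 members had an unadjusted p under 0.05 (9.37% of all genes) and DESeq2 called 0. Site values did not overlap for 1 of 10 members, Bcl2a1a, against 10.1% of all genes. It averaged 2.87 ± 0.832 CPM over femur and 1.76 ± 0.546 CPM over mandible libraries (SD, n = 3 each), and its log2 fold change was -0.73 (SE 0.29, edgeR adjusted p of 0.486), beside -0.43 for the sum of the copies (SE 0.23, edgeR adjusted p of 0.624). Bcl2l11 was 19.3 ± 2.48 against 16.2 ± 1.01 CPM (SD, n = 3 each), or -0.29 on the log2 scale (SE 0.12, edgeR adjusted p of 0.522). In such sums fewer cells of a type and less RNA per cell cannot be told apart.

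The deposited phase calls, made by the authors from S and G2M gene lists that hold no member, allowed cells called S or G2M to be compared with G1 cells of the same cluster and library. In cluster 5, 6 of 10 members were called in edgeR with library as a term, all lower in cells called S or G2M. Of all 12141 genes, 58.2% were called, 29.6% lower and 28.6% higher, so the share of members called was near that of all genes. The A1 copies had the largest changes of the members. Bcl2a1b fell from 43.0, 38.9 and 38.5 CPM in G1 cells of the femur libraries to 8.05, 15.96 and 19.9 CPM, and from 27.8, 19.3 and 29.1 CPM to 4.84, 4.82 and 3.92 CPM in the mandible libraries. It was lower in 6 of 6 libraries, and its log2 fold change was -1.77 (SE 0.23, edgeR adjusted p of 6.7e-05).

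Bcl2a1a and Bcl2a1d had log2 fold changes of -1.70 (SE 0.30, edgeR adjusted p of 0.000535) and -1.62 (SE 0.26, edgeR adjusted p of 0.000268), each lower in 6 of 6 libraries. Their sum with Bcl2a1b, whose phase change was not fitted, averaged 60.8 ± 18.5 CPM in G1 cells and 18.4 ± 12.1 CPM in S or G2M cells (SD, n = 6 each), lower in 6 of 6. Mcl1 fell from 528 ± 56.4 to 302 ± 42.6 CPM (SD, n = 6 each), or -0.79 on the log2 scale (SE 0.08, edgeR adjusted p of 1.42e-05). Bcl2l11 changed by -0.68 (SE 0.11, edgeR adjusted p of 0.000215) and Bcl2 by -0.59 (SE 0.15, edgeR adjusted p of 0.00538), also in 6 of 6 libraries.

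Bcl2l1 (-0.23, SE 0.14), Bid (0.10, SE 0.11), Bax (0.10, SE 0.07) and Bak1 (0.02, SE 0.07) were not called in cluster 5, with edgeR adjusted p between 0.167 and 0.7998. Bax measured 62.2 to 86.2 CPM in G1 cells and 69.5 to 98.7 CPM in S or G2M cells. Bid had -0.30 in S cells taken alone (edgeR adjusted p of 0.116), and was called higher in G2M cells taken alone (0.30, edgeR adjusted p of 0.0201) and in cells with a monocyte label (0.39, edgeR adjusted p of 0.00343). Bcl2 had 0.15 in S cells alone and -1.20 in G2M cells alone (edgeR adjusted p of 0.434 and 0.000118).

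Depth differed between the phases. Cells called S or G2M were deeper, with median UMIs of 14502.5 to 21679 in 5 libraries against 7804 to 10273 in G1 cells, except in femur replicate 1, where the median was 2086.5 and its 106 cells called S had a median of 1639.5 UMIs. Without femur replicate 1 the calls on the 6 members stood, with log2 fold changes of -1.68 for Bcl2a1b and -0.71 for Mcl1 (edgeR adjusted p of 0.000283 and 2.72e-05). In cells with a monocyte label alone the A1 changes were -3.46, -3.34 and -3.20 for Bcl2a1a, Bcl2a1b and Bcl2a1d (edgeR adjusted p of 6.28e-07, 6.26e-10 and 6.4e-07), and that of Mcl1 was -0.76 (edgeR adjusted p of 1.9e-09). Those of Bcl2 and Bcl2l11 were larger than in all cells, at -1.59 and -1.11 (edgeR adjusted p of 6.11e-07 and 1.08e-06).

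**Figure D5:**
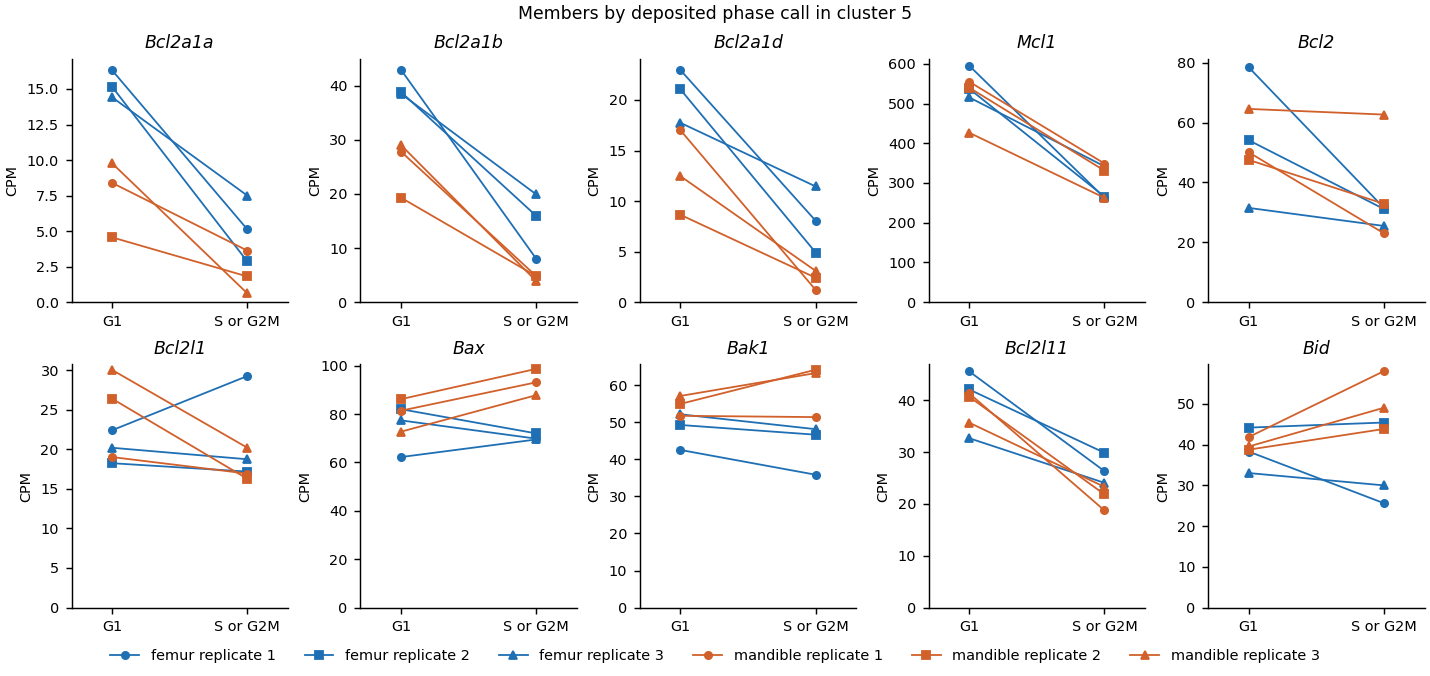
CPM (linear axes from 0) of the 10 members in cluster 5 cells called G1 and in those called S or G2M, with 1 line per library, blue for femur and orange for mandible. The lines of the A1 copies, Mcl1, Bcl2 and Bcl2l11 fall in all 6 libraries, and those of Bax, Bak1, Bid and Bcl2l1 go both ways.

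In cluster 4 the phase comparison had little to work with, since 6 to 28 cells per library were called G1 against 620 to 2961 called S or G2M. Of 7 members tested, 1 was called, beside 13% of 10158 genes (8.95% higher and 4.04% lower). Mcl1 was lower in S or G2M cells, at -0.44 on the log2 scale (SE 0.14, edgeR adjusted p of 0.0235), in 5 of 6 libraries. That call was lost without the filter on low counts (edgeR adjusted p of 0.0902), without the 5% of cells with most UMIs (0.126) and without mandible replicate 1, 2 or 3 (0.108, 0.125 and 0.0640). The log2 fold changes of the others were Bax 0.39, Bcl2 0.29, Bak1 0.26, Bcl2l1 0.04, Bcl2l11 -0.09 and Bid -0.23, with edgeR adjusted p between 0.389 and 0.954.

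The wider apoptosis pathway was read from a list of 32 genes outside the members, of which 6 to 26 were tested per cluster. By site, 0 of them were called in any of the 9 clusters or over all cells, with at most 2 higher and 2 lower in any cluster at an unadjusted p under 0.05. Pmaip1 (Noxa), a BH3-only protein that binds Mcl1 and marks it for degradation, had the lowest log2 fold change of the list in each of clusters 0 to 7. In cluster 1 it averaged 102 ± 25.3 CPM over femur and 41.5 ± 9.61 CPM over mandible libraries (SD, n = 3 each, no overlap). The log2 fold change was -1.15 there (SE 0.21, edgeR adjusted p of 0.0838), -1.47 in cluster 2 (SE 0.25, edgeR adjusted p of 0.0804), -1.26 in cluster 3 (SE 0.35, edgeR adjusted p of 0.604), -1.84 in cluster 7 (SE 0.48, edgeR adjusted p of 0.448) and -0.48 in cluster 5 (SE 0.25, edgeR adjusted p of 0.744).

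Of 26 pathway genes tested by phase in cluster 5, 11 were called lower and 10 higher in S or G2M cells, beside 29.6% and 28.6% of all genes. Birc5 (survivin), which Seurat's G2M list itself holds, was highest (5.25, SE 0.26), followed by Cycs, the cytochrome c gene (0.84, SE 0.10). Bmf, a BH3-only gene, was lowest (-2.07, SE 0.21), followed by Pmaip1 (-1.08, SE 0.11). The median of the list was -0.12, beside -0.02 over all genes.

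A list of 16 stimulus-response genes (immediate early genes and NF-kB targets) was set beside the A1 copies, which are themselves known NF-kB targets. By site 0 of the 16 were called in cluster 5, with 8 positive and 8 negative log2 fold changes and a median of 0.01, while the A1 copies were at -1.23 to -0.92. The lowest of the list were Cd83 (-0.44, SE 0.39) and Icam1 (-0.31, SE 0.17), and the highest were Ier3 (0.64, SE 0.32) and Ier2 (0.35, SE 0.15). In cluster 1, 12 of 15 were positive with a median of 0.25, led by Tnfaip3 (1.04, SE 0.30) and Nfkbia (0.69, SE 0.12, edgeR adjusted p of 0.0779), and 0 were called. The lowest there were Atf3 (-0.93, SE 0.29, edgeR adjusted p of 0.212), at 136 ± 11.02 CPM over femur and 64.3 ± 31.0 CPM over mandible libraries (SD, n = 3 each, no overlap), and Icam1 (-0.64, SE 0.23, edgeR adjusted p of 0.273). By phase in cluster 5, 15 of 16 were called lower in S or G2M cells with a median of -0.93, and Jun was not called (-0.09, SE 0.07).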

How the data were processed

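Per the labels, CD11b+ cells were profiled with 10x 3' gene expression chemistry, and the authors deposited raw UMI counts per barcode, made with Cell Ranger (7.0.1 in the submitters' processing notes, while the matrix headers name 7.1.0) on mm10. Strand was not given in the sources used here. The deposited cell table gives clusters, reference labels, phase calls, UMI counts and the mitochondrial percent of each kept cell. The authors' marker and comparison columns were not used. Doublets were not called here. Leaving out the 5% of cells with most UMIs was an alternative.

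UMIs were summed per library and cluster (3 libraries per site, 69776 of 74091 barcodes) and tested with edgeR 4.0.16 in R 4.3.3 (TMM, low-count filter, quasi-likelihood test, Benjamini-Hochberg over all genes, threshold 0.05), with DESeq2 1.42.0 as an alternative and limma 3.58.1 (prior count 2) for differences between clusters. The study's own methods test cells, which are not replicates. Phase fits held library as a term. The SE of an edgeR fold change was its size over the square root of its F statistic, which cannot be relied on near 0. The scripts were tested on simulated data. Members and lists were chosen with earlier results of these data known. Site fold changes were named at an unadjusted p under 0.05, and in clusters 1 and 5 for Bcl2a1b, Bcl2a1d, Mcl1 and Bcl2l11 at any p. Those of Mcl1 in clusters 2, 3 and 7, Bcl2a1a in cluster 0, Bcl2a1b in cluster 2 and the summed copies were named after their values were seen. Phase fold changes were named for each member tested. The sums of 2 of the marker lists are not reported here, and a sum of 3 haemoglobin genes was added after seeing the data.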

Additional observations from a re-analysis of the deposited data

Results flagged for a closer look

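Bcl2a1a and Bcl2a1b differed in the sign of their phase difference between clusters 4 and 5, but the cluster 4 sign cannot be read. Its G1 cells, 6 to 28 per library, held 0 Bcl2a1a UMIs and 1 Bcl2a1b UMI in all, and a value cannot lie below 0. The median library difference in cluster 4 minus that in cluster 5 was 8.51 CPM for Bcl2a1a and 24.5 CPM for Bcl2a1b, and this difference was not tested. In cluster 4, Bcl2a1d averaged 2.73 ± 5.15 CPM in G1 cells and 0.487 ± 0.367 CPM in S or G2M cells (SD, n = 6 each). The sum of the 3 copies there averaged 2.94 ± 5.05 CPM on 3 UMIs against 2.57 ± 0.540 CPM (SD, n = 6 each), higher in S or G2M cells in 4 of 6 libraries, so no direction held for the sum.

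Barcodes that the authors left out for a mitochondrial share over 20% (58 to 132 per library, 1162916 UMIs in all) still held member transcripts above the limit of 3 counts. Their pooled levels were 370 CPM for Mcl1 on 430 UMIs, 25.8 CPM for Bcl2l1, 21.5 CPM for Bcl2l11, 20.6 CPM for Bid, 15.5 CPM for Bak1, 13.8 CPM for Bcl2a1b and 12.9 CPM for Bax.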

How the results depend on the processing

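Of 234 alternative values for the site fold changes named by rule, 230 kept their direction and side of the threshold, 2 passed it (Bcl2a1a and Bcl2a1b in cluster 5 under DESeq2) and 2 reversed. Those were Bcl2a1d in cluster 1 without mandible replicate 2 (0.0069, from -0.50 over libraries left out) and Mcl1 in cluster 1 with the replicate block by library name number (0.0045). Members called by site numbered 0, or 2 under DESeq2. The 24 genes called over clusters became 784 with DESeq2, 1907 with no filter on low counts, 70 with library size alone, 13 without the top 5% of cells, 12 in G1 cells, 4563 with the library name block and 6 to 127 with each library left out. In phase cluster 4, members called (Mcl1 alone) were 0 with no filter, 0 without the top 5% of cells and 0 to 1 with each library left out, and the 1319 genes called became 847 with DESeq2 and 872 to 1624 with each library left out.

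Of 231 phase values, 208 were the same, 5 lost and 2 gained the threshold and 16 reversed. In cluster 4, Bcl2l11 reversed with no replicate block (0.0144), without the top 5% (0.172), for S against G1 (0.0839) and without femur replicate 1 or 2 (-0.42 to 0.21 over libraries left out), Bcl2l1 for S against G1 (-0.0845) and without femur replicate 2 (-0.052 to 0.081), and Bak1 without mandible replicate 2 (-0.052 to 0.39). In cluster 5, S against G1 gave 0.147 for Bcl2, -0.302 for Bid and -0.191 for Bak1. Monocyte-labelled cells gave 0.199 for Bcl2l1 and -0.132 for Bax. Bak1 was -0.0210 with no filter, -0.0128 without the top 5% and -0.0074 to 0.073 over libraries left out. The cause of these changes was not tested.

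The replicate block by title number gave -1.29, -0.96 and -1.01 for Bcl2a1a, Bcl2a1b and Bcl2a1d in cluster 5, and the block by library name number (4 libraries) gave -1.42, -1.04 and -0.97, with 0 members called in either. Same-numbered libraries deviated with r of -0.40 to 0.18 by title number and 0.0031 to 0.50 by library name number in clusters 0 to 7. The 2 library name pairs were both positive in each of these clusters, from 0.29 upwards in clusters 0 to 3. The labels do not say what either number marks, and whether a library name number stands for a shared animal or batch was not tested. Settings restricted to labels were added after seeing the data, except the monocyte-label site fit. Counts limit clusters 6 and 8 and G1 cells of cluster 4.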
